A study of Mus musculus with 9 samples.

Results

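Most of the genes described here carry names given to the machinery of beating cilia. In the spinal cord that machinery belongs to the ependymal cells that line the central canal. The names alone do not make each member particular to those cells. Members were taken by name as every gene symbol that starts with Dnah, Dnai, Cfap or Rsph followed by a digit, plus Foxj1, with pseudogene symbols and symbols ending in os left out. This gave 74 of the 40879 gene symbols in the table, of which 15 are Dnah, 5 are Dnai, 46 are Cfap and 7 are Rsph genes, and 1 is Foxj1. The rule uses gene names alone. Counts were found for 71 of the 74, and all 71 were high enough to be tested. Cfap97d1, Cfap97d2 and Rsph3a were listed at 0 in all 9 libraries.

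RNA from the spinal cord of male mice was sequenced in 9 libraries. The 3 libraries of the SNI+LDN193189 group came from mice that had the injury and received the compound, 3 came from the SNI group and 3 from the sham group. SNI is the usual abbreviation of spared nerve injury, a model of neuropathic pain made by cutting branches of the sciatic nerve and sparing another. LDN193189 is a kinase inhibitor that blocks BMP type I receptors, ACVR1 among them, and the series title names ACVR1. The labels give no strain, genetic change, age, cord segment, side, time after injury, dose, route or vehicle, so it is not known whether the SNI and sham groups received vehicle. They call the replicates separate biosamples without naming animals, so p-values measure the spread between these samples. Their extraction text speaks of cell lines, while the tissue is given as spinal cord. The table's columns carry the letters L, N and S, read by name as LDN193189, SNI and sham. Were S to mean SNI and N the control, every SNI against sham direction would be inverted and the 2 comparisons of the treated group would be swapped.

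Motile cilia beat because dynein arms, fixed to the outer microtubule doublets of the axoneme, walk along the neighbouring doublet. Outer arms set the beat frequency and inner arms shape the bend. Radial spokes and the central pair of microtubules pass mechanical signals to the arms, and nexin-dynein regulatory complexes link the doublets. Proteins inside the doublet wall stabilise it. FOXJ1 and RFX transcription factors switch on this gene programme in cells with motile cilia, and RFX proteins bind a near-palindromic element, the X-box. In the central canal the beat moves cerebrospinal fluid. In whole cord, fewer ependymal cells and less RNA per ependymal cell cannot be told apart.

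RefSeq promoter windows of GRCm38.p6, from 250 bases before to 50 bases after a gene's start, were found for 48 of the 74 members. An X-box, searched on both strands as GTNNCC followed by 3 bases of any kind and GNNAC, stood in the windows of 12 members, or 25%. Over all 27025 genes with a window the share was 5.26%. The short RFX motif GTTGCC, which can lie within an X-box, stood in 17 members' windows, or 35.4%, and in 14.1% of all genes. The forkhead core TAAACA, searched alike on both strands, stood in 9 members' windows, or 18.8%, and in 15.1% of all genes. These matches describe letters and not bound sites. The following stretches, each read 5′ to 3′ on the strand of the gene, are shown because they carry the X-box in genes of different parts of the axoneme, and the capitals mark the match. Coordinates are those of GRCm38.p6. The windows follow RefSeq starts, which can differ from the GENCODE M21 placement used elsewhere. The stretches of Cfap45, Cfap126, Cfap298 and Dnah17 lie inside the gene as GENCODE M21 places it, and that of Rsph9 at its edge. Cfap126 runs there from 171113918 to 171126967 and Dnah17 from 118021723 to 118130634.
Cfap44, dynein tether, chr16:44394752-44394798, plus strand: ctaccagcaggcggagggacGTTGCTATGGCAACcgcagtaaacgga
Cfap298, dynein assembly, chr16:90935004-90935057, minus strand: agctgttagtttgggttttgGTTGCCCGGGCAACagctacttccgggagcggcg
Cfap45, microtubule inner protein, chr1:172521091-172521129, plus strand: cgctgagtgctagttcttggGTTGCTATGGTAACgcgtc
Cfap126, microtubule inner protein, chr1:171122943-171122996, plus strand: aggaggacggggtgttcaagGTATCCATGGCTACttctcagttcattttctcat
Cfap206, radial spoke base, chr4:34730207-34730249, minus strand: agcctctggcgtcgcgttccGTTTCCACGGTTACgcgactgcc
Rsph9, radial spoke head, chr17:46144185-46144214, minus strand: ggctcaggGTCTCCATGGAGACagcttcta
Dnah2, inner arm heavy chain, chr11:69549161-69549214, minus strand: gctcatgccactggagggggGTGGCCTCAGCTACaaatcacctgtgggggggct
Dnah17, outer arm heavy chain, chr11:118129345-118129398, minus strand: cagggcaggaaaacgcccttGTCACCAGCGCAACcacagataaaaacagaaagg
In Cfap44 and Cfap298 the outer letters form the facing pair GTTGC and GCAAC, which the other 6 matches shown do not hold on both sides.

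Levels between genes are compared as FPKM, counts normalised for gene length and sequencing depth, which the authors deposited. Over the 9 libraries 5 members averaged at least 10 FPKM, 28 averaged from 1 to under 10, and 38 stayed under 1. Foxj1, the transcription factor of the motile cilia programme, lies on chromosome 11 at 116330704 to 116335399 of GRCm38 and averaged 11.2 FPKM, with library values of 9.98 to 13. The other members at 10 FPKM or more were Cfap36 with 27.7, Cfap20 with 21.7, Cfap418 with 19.5 and Cfap410 with 12.4 FPKM. Not all of these belong to motile cilia alone: human CFAP410 is known as a partner of the kinase NEK1 and human CFAP418 from photoreceptors, and both act in cells without beating cilia. By CPM (counts after scaling every library to the same size), Cfap36, Cfap97, Cfap418, Cfap69 and Cfap68 together held 38.9% of the members' summed level, so sums follow these few genes.

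The heavy chains, which are the motors themselves, were the least abundant group per length. The lengths used for them ran from 12860 bases for Dnah7a to 19402 for Dnah2, and an effect of length on coverage was not tested. The 5 outer arm heavy chains had mean levels of 0.0886 FPKM for Dnah17 to 0.471 FPKM for Dnah9, with a median of 0.278 FPKM. Dnah17 is known in mouse and human as an outer arm chain of sperm, whereas Dnah5 and Dnah9 serve in cilia of other epithelia. The 10 inner arm heavy chains had a median of 0.369 FPKM, with Dnah7b highest at 1.06, Dnah10 at 0.513 and Dnah12 at 0.476 FPKM. Dnah7a, Dnah7b and Dnah7c are near copies of each other, so the split of reads among them is uncertain, and the same holds for Rsph3a and Rsph3b. Of 59 members placed in GENCODE M21, 15 overlap a coding gene on the other strand, among them Cfap100, Dnah3, Dnah11, Dnah14 and Dnah17, and whether counting used strand is not stated, so reads of these overlaps are uncertain. The intermediate chains, which anchor the motors, were more abundant per length, with Dnai4 at 4.85, Dnai1 at 2.42, Dnai2 at 1.85, Dnai3 at 0.548 and Dnai7 at 0.288 FPKM. This order depends on the lengths used, which were 3253 bases for Dnai3 and 11322 for Dnai7. By mean CPM Dnai7 with 3.26 lay above Dnai3 with 1.78.

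Among radial spoke genes the spoke stalk gene Rsph3b averaged 4.68 FPKM, followed by the spoke head genes Rsph1 with 2.73, Rsph9 with 1.98 and Rsph4a with 1.94 FPKM. Rsph14 averaged 0.205 FPKM, and Rsph6a, the paralogue of Rsph4a that is used in sperm, averaged 0.167 FPKM. Of the 6 central pair genes Cfap69 was highest at 7.29 FPKM, and the other 5 lay at 0.294 to 0.912 FPKM. In the group of dynein tethers, regulators and assembly factors, Cfap300 led with 6.94 and Cfap298 followed with 6.33 FPKM, both of them needed to assemble dynein arms. The 14 microtubule inner proteins ran from 0.343 FPKM for Cfap161 to 21.7 FPKM for Cfap20. By CPM, the highest library value of a member was 1.16 times the lowest for Cfap20 and 7.97 times for Rsph14, whose counts were among the lowest.

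**Figure D1:**
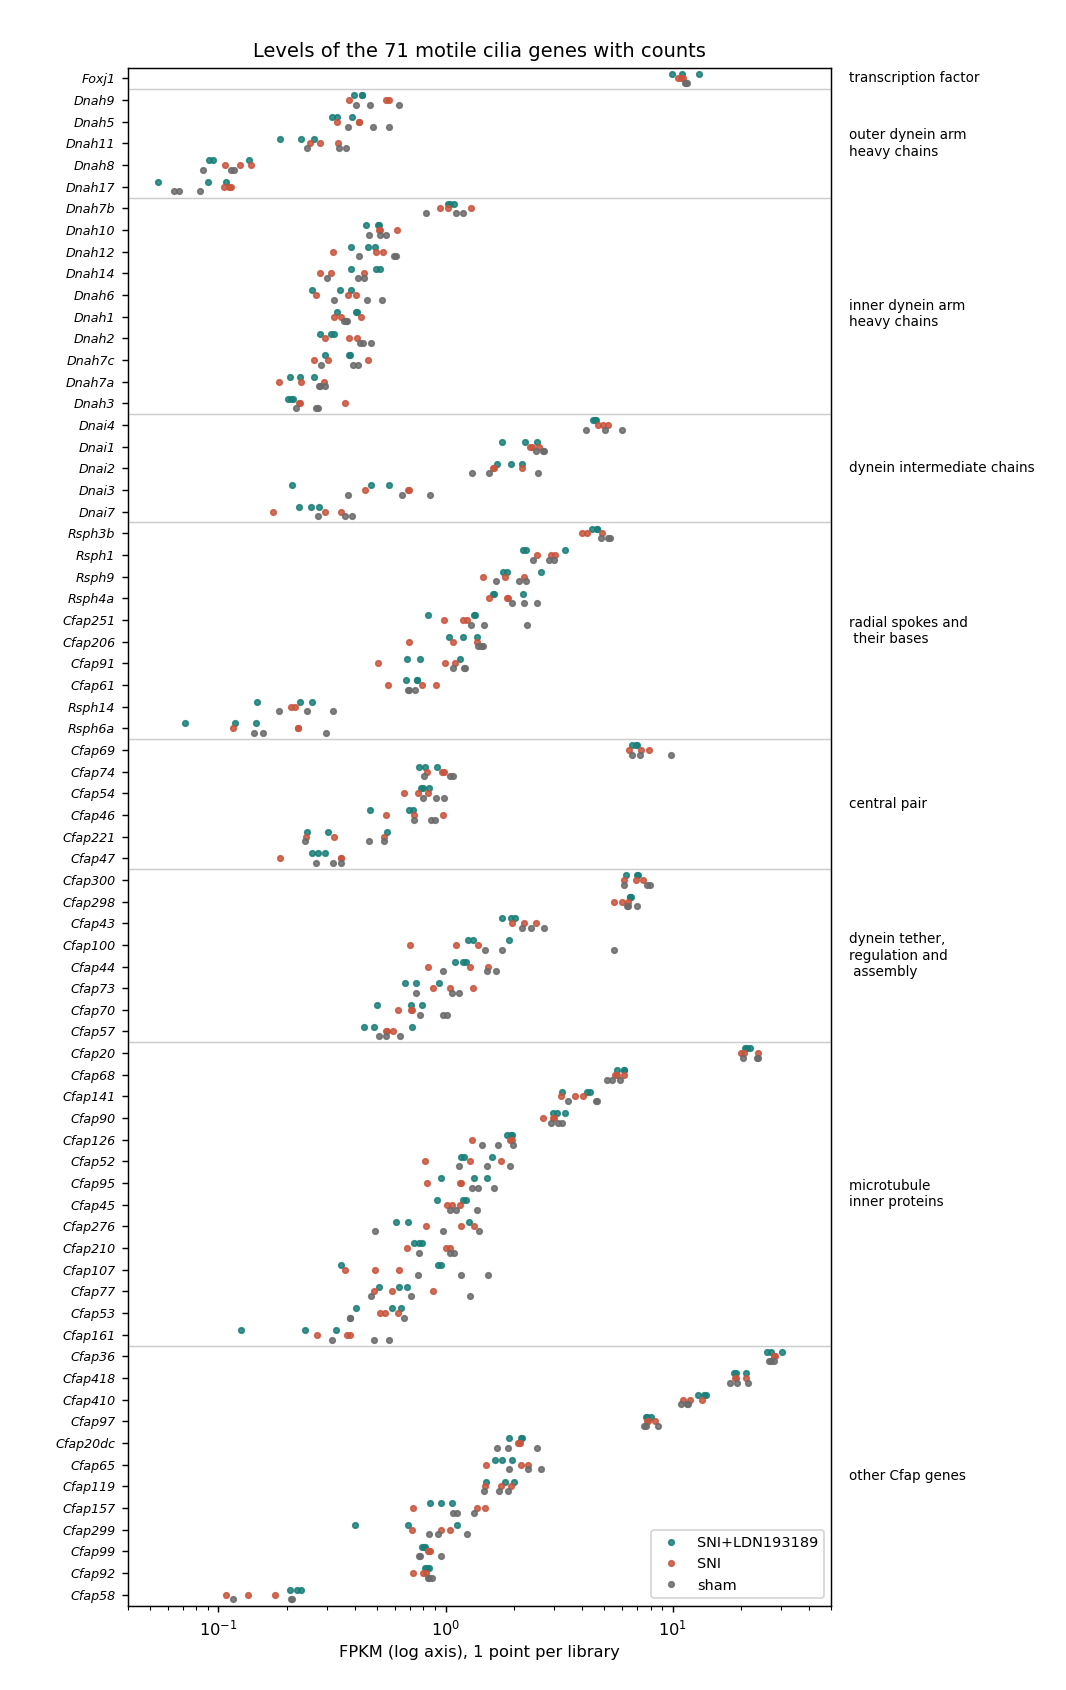
FPKM of the 71 members with counts on a log axis, with 1 point per library, coloured by group and arranged by role. Heavy chains lie mostly under 1 FPKM, Foxj1 near 11.2 FPKM, and in most rows the points of the 3 groups interleave.

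The libraries held 33432776 to 37190467 counts, and 10 of the 71 members had a mean count under 50 while 52 had 100 or more. Of the counts above 0 in a library 70.7 to 71.8% were even, so there may be fewer independent fragments than counts. edgeR quasi-likelihood tests (two-sided) were run on 18245 genes, with Benjamini-Hochberg adjustment over all of them. Across these genes 0 were called at an adjusted p under 0.05 for SNI against sham (972 at an unadjusted p under 0.05, and 24 by DESeq2), 1 for SNI+LDN193189 against SNI (Mmp14) and 3 for SNI+LDN193189 against sham (Per2, Bmal1 and Mmp14). Each sham library stood apart by markers of another tissue. Sham replicate 3 held 7260 summed CPM of 12 Schwann cell and nerve root genes, against 1147 to 3155 CPM in the other 8 libraries. It also held 906 summed CPM of 12 meningeal fibroblast genes, against 132 to 360 elsewhere. Sham replicate 1 held 1001 summed CPM of 10 skeletal muscle genes, against 79.8 to 117 in the other 8. Sham replicate 2 held 174 summed CPM of 10 sensory ganglion neuron genes, against 80.3 to 109 in the other 8, with Scn10a at 11.8 CPM and at most 1.51 CPM elsewhere. Microglia markers, with P2ry12 at 0, summed to 311 to 335 CPM in SNI+LDN193189, 288 to 322 CPM in SNI and 247 to 283 CPM in sham libraries.

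For SNI against sham no member passed the test. Of the 71 members 0 were called at an adjusted p under 0.05, where 0.0% of all genes were. At an unadjusted p under 0.05 there were 5 members, or 7.04%, beside 5.33% of all genes. DESeq2, limma-voom and limma on log2 FPKM also called 0 members. The members' median log2 fold change was -0.10, beside 0.00048 over all genes tested, and the median standard error of a member was 0.20. Below 0 were 47 members, or 66.2%, where 49.9% of all genes lay below 0. In 8 members, or 11.3%, all 3 SNI values lay under all 3 sham values, as in 4.43% of all genes, and in Dnah17, 1 of 71, they lay above, as in 4.45%. The 8 were Cfap70, Cfap92, Cfap95, Cfap100, Cfap107, Cfap251, Dnah2 and Rsph4a.

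Roles were assigned by hand after values had been seen, so tallies by role, here and below, are a description. By role, all 6 central pair genes had a log2 fold change below 0 with a median of -0.13, as had 8 of the 10 tested radial spoke genes with a median of -0.27 and 10 of the 14 microtubule inner proteins with a median of -0.10. The outer arm heavy chains had a median of 0.0042, and 8 of the 12 other Cfap genes lay above 0. Foxj1 had 31.1, 30.1 and 28.8 CPM in SNI libraries, against 31.0, 32.0 and 31.1 CPM in sham libraries. The highest SNI value lies inside the sham range, and its log2 fold change was -0.07 with a standard error of 0.087 (edgeR adjusted p = 0.979). Without SNI replicate 3 it was -0.04.

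The 5 members with the smallest p each had an adjusted p of 0.927. Cfap107, a microtubule inner protein, had 0.365, 0.484 and 0.609 CPM in SNI libraries, against 1.5, 0.762 and 1.13 CPM in sham libraries. The groups do not overlap, and the log2 fold change was -1.21 ± 0.44 (SE). Cfap100, whose homologue in the alga Chlamydomonas regulates inner arms, had 7.81, 12.3 and 15.2 CPM in SNI libraries, against 16.3, 19.9 and 59.9 CPM in sham libraries. The highest of these values came from sham replicate 3, and the log2 fold change of -1.44 stood at -0.62 without that library.

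Cfap251, of the radial spoke base, had 4.92, 5.92 and 6.06 CPM in SNI libraries, against 6.33, 7.39 and 11.1 CPM in sham libraries. Its log2 fold change was -0.55 ± 0.22 (SE), with sham replicate 3 again highest, and -0.28 without that library. Rsph4a, of the spoke head, had 5.74, 6.78 and 6.75 CPM in SNI libraries, against 9.12, 7.24 and 7.88 CPM in sham libraries. Its log2 fold change was -0.33 ± 0.16 (SE). Dnah17 had the opposite sign, with 1.73, 1.61 and 1.72 CPM in SNI libraries, against 1.02, 0.997 and 1.24 CPM in sham libraries, and a log2 fold change of 0.64 ± 0.29 (SE). With limma on log2(FPKM + 0.1), a scale that understates the change of low genes, it was 0.30.

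Nerve root markers moved with this comparison. All 12 were lower in SNI libraries (median log2 fold change -2.14), and their mean log2 CPM was 3.52, 4.39 and 4.67 in SNI libraries, against 4.68, 5.84 and 7.06 in sham libraries. With that level as a covariate in the fit, the members' median was -0.02, Cfap251 stood at 0.05 and Cfap100 at 0.05. Every SNI library had a lower level than any sham library, so this fit cannot fully separate the level from the group. Meningeal fibroblast markers were lower in 11 of 11 cases with a median of -1.33, and sensory ganglion markers in 9 of 9 with a median of -1.42. Skeletal muscle markers were lower in 9 of 10 cases with a median of -6.91, and sham replicate 1 held their highest sum, 1001 CPM. Oligodendrocyte markers were higher in 10 of 10 cases with a median of 0.11, neuron markers in 10 of 12 with 0.10 and microglia markers in 9 of 9 with 0.20. At an unadjusted p under 0.05 were 10 of 12 nerve root and 8 of 10 muscle markers, all lower. So were 3 of 11 meningeal and 1 of 9 ganglion markers. Higher at that p were 6 microglia, 2 neuron and 1 oligodendrocyte markers. The share over all genes was 5.33% in both directions together. Of these lists 0 genes were called. The part of these lists in the members' values was not tested. Without SNI replicate 1 the members' median was -0.03. Without sham replicate 1 it was -0.06, without sham replicate 3 it was -0.06, and without sham replicate 2 it was -0.17.

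For SNI+LDN193189 against SNI, 0 of the 71 members were called at an adjusted p under 0.05, where 0.00548% of all genes were. At an unadjusted p under 0.05 there was 1 member, or 1.41%, beside 3.88% of all genes, and the other tools called 0. The members' median log2 fold change was -0.02, beside -0.00075 over all genes, and 42 members lay below 0, or 59.2%, beside 50.2% of all genes. All 3 SNI+LDN193189 values exceeded all 3 SNI values in Cfap298 and Cfap58, and lay below them in Cfap99 and Dnah3. These are 2.82% of members in each direction, where 5.71% of all genes were higher without overlap and 5.55% lower. Apart from Dnah3, these genes were named after their values were seen.

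Foxj1 had 36.0, 30.8 and 27.7 CPM in SNI+LDN193189 libraries, against 31.1, 30.1 and 28.8 CPM in SNI libraries. The treated libraries enclose the SNI range, and the log2 fold change was 0.07 with a standard error of 0.087 (edgeR adjusted p = 1.00). Without SNI+LDN193189 replicate 1, the highest of the 9, it was -0.04. Dnah14, an axonemal heavy chain, had the smallest p, with 5.32, 6.93 and 7.16 CPM in SNI+LDN193189 libraries, against 3.95, 4.36 and 6.01 CPM in SNI libraries. The log2 fold change was 0.44 ± 0.20 (SE), and SNI replicate 3 lay within the treated range.

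Dnah3, an inner arm heavy chain, had 2.90, 2.81 and 2.87 CPM in SNI+LDN193189 libraries, against 3.13, 3.12 and 4.87 CPM in SNI libraries. Its log2 fold change of -0.38 rested on SNI replicate 3, without which it was -0.13. Cfap410 had a log2 fold change of 0.16, and Cfap43 one of -0.21, or -0.13 without SNI replicate 3. Among the roles, all 5 outer arm heavy chains lay below 0 at a median log2 fold change of -0.24, Dnah11 among them at -0.34, or -0.22 without SNI+LDN193189 replicate 3, and 7 of the 10 radial spoke genes lay above 0 with a median of 0.05. Nerve root markers were higher in SNI+LDN193189 libraries in 11 of 12 cases (median log2 fold change 0.89), and with their level as a covariate the members' median was -0.09. Every SNI+LDN193189 library had a higher level than any SNI library, so here too the fit cannot fully separate the level from the group. Without SNI replicate 1 the members' median was also -0.09, and without SNI replicate 3 it was -0.00066.

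For SNI+LDN193189 against sham, 0 of the 71 members were called at an adjusted p under 0.05, where 0.0164% of all genes were. At an unadjusted p under 0.05 there were 9 members, or 12.7%, beside 8.56% of all genes, and the other tools called 0. Of the 9, Cfap410 was higher, beside 4.07% of all genes, and 8 were lower, beside 4.49% of all genes, namely Cfap161, Cfap251, Cfap43, Cfap65, Cfap70, Dnah11, Dnah2 and Dnah5. The members' median log2 fold change was -0.15, beside -0.0069 over all genes, and 51 members, or 71.8%, lay below 0, beside 52.0% of all genes. In 7 members, or 9.86%, all SNI+LDN193189 values lay under all sham values, as in 6.31% of all genes, namely Cfap43, Cfap46, Dnah2, Dnah3, Dnah7a, Dnai7 and Rsph3b. In Cfap410 alone among members they lay above, as in 6.81% of all genes. This comparison and SNI against sham share the sham libraries, so their values do not count as separate evidence.

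Dnah2, an inner arm heavy chain on chromosome 11 at 69420809 to 69549110 of GRCm38, had the smallest p of any member. It had 6.24, 5.5 and 6.13 CPM in SNI+LDN193189 libraries, against 9.01, 8.27 and 8.23 CPM in sham libraries. The groups are well apart, the SNI libraries spanned 5.83 to 7.81 CPM, and the log2 fold change was -0.51 ± 0.14 (SE, edgeR adjusted p = 0.396). Over the alternatives the adjusted p of Dnah2 ran from 0.110, with DESeq2, to 0.834.

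Cfap410 had 29.5, 28.2 and 30.5 CPM in SNI+LDN193189 libraries, against 23.2, 25.5 and 24.4 CPM in sham libraries. Every treated value is above every sham value, at a log2 fold change of 0.27 ± 0.080 (SE, edgeR adjusted p = 0.425). Cfap43, a dynein tether protein whose loss in mice causes hydrocephalus, had 14.1, 15.7 and 16.1 CPM in SNI+LDN193189 libraries, against 18.7, 17.6 and 21.0 CPM in sham libraries. Its log2 fold change was -0.32 ± 0.11 (SE, edgeR adjusted p = 0.476). The gene overlaps Itprip on the same strand in GENCODE M21, so reads of the overlap are uncertain.

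Dnah5, the outer arm heavy chain whose loss in mice stops ependymal flow, had 6.09, 5.08 and 5.27 CPM in SNI+LDN193189 libraries, against 7.45, 5.98 and 8.66 CPM in sham libraries. The lowest sham library lay under the highest treated library, and the log2 fold change was -0.43 ± 0.17 (SE, edgeR adjusted p = 0.547). Cfap161, at low counts, had 1.49, 1.11 and 0.573 CPM in SNI+LDN193189 libraries, against 2.55, 1.47 and 2.15 CPM in sham libraries. The groups just overlap, at a log2 fold change of -0.96 ± 0.34 (SE, edgeR adjusted p = 0.523). Foxj1 averaged 31.5 ± 4.21 CPM in SNI+LDN193189 libraries and 31.4 ± 0.547 CPM in sham libraries (SD, n = 3 each), a log2 fold change of 0.0035 with a standard error of 0.087 (edgeR adjusted p = 0.993). Its sign turned under several settings, with values from -0.11 to 0.09.

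In this comparison all 6 central pair genes lay below 0 with a median log2 fold change of -0.17, as did 8 of 10 radial spoke genes and 7 of 8 tether, regulation and assembly genes, with medians of -0.23 and -0.27. The other Cfap genes were divided, 6 above and 6 below 0. Nerve root markers were lower in 11 of 12 cases with a median of -1.28, and with their level as a covariate the members' median was -0.06. Meningeal fibroblast markers were lower in 11 of 11 cases with a median of -0.89, and sensory ganglion markers in 9 of 9 with -1.64. Skeletal muscle markers, highest in sham replicate 1, were lower in 10 of 10 cases with a median of -4.78. Oligodendrocyte markers were higher in 9 of 10 cases with a median of 0.13, and microglia markers in 9 of 9 with 0.28. At an unadjusted p under 0.05 were 5 of the oligodendrocyte and 7 of the microglia markers, all higher, beside 4.07% of all genes. Lower at that p were 1 nerve root, 3 ganglion, 3 muscle and 0 meningeal markers, beside 4.49% of all genes. Of these lists 0 genes were called. The part of these lists in the members' values was not tested. The members' median was -0.09 without sham replicate 1, -0.09 without sham replicate 3 and -0.21 without sham replicate 2.

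In a joint test of the 3 groups 0 members were called, beside 0.00548% of all genes, and 6 members had an unadjusted p under 0.05, or 8.45%, beside 5.94% of all genes. Those 6 were Cfap107, Cfap161, Cfap251, Cfap410, Cfap43 and Dnah2.

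**Figure D2:**
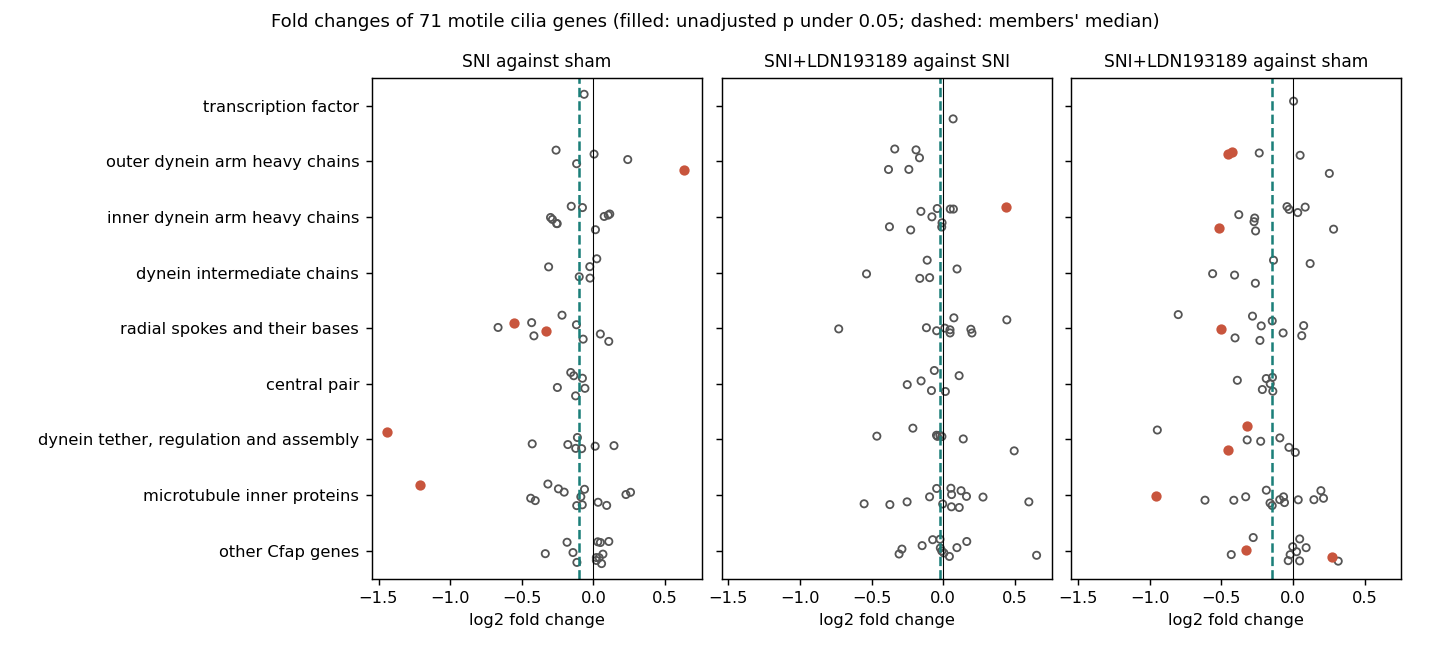
Log2 fold change of each of the 71 members by role in the 3 comparisons, with filled points for an unadjusted p under 0.05 and a dashed line at the median. The medians lie at -0.10, -0.02 and -0.15, and filled points number 5, 1 and 9.

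**Figure D3:**
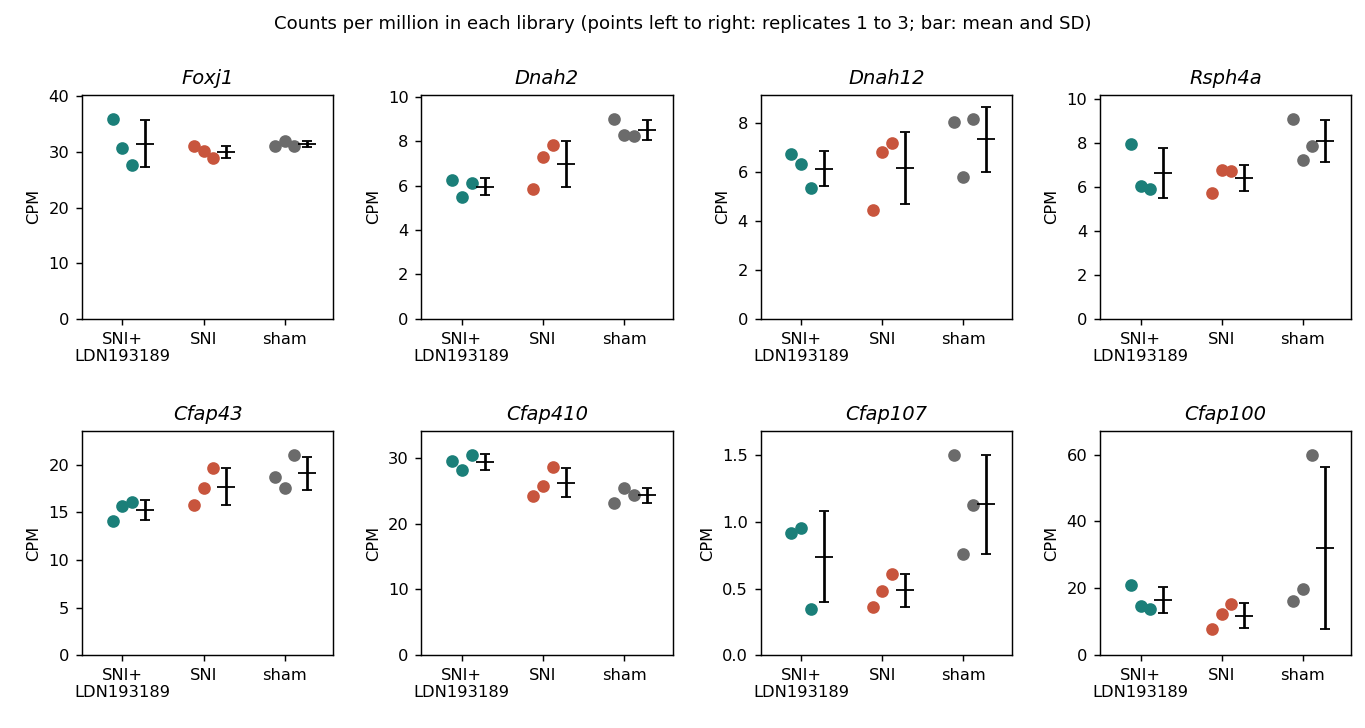
CPM of 8 members in each library, with the mean and SD of each group beside its points. Foxj1 averages 31.5, 30.01 and 31.4 CPM in the 3 groups, Dnah2 separates SNI+LDN193189 from sham libraries, and Cfap100 has 1 sham library at 59.9 CPM.

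The members' summed level was 714 ± 11.6 CPM in SNI+LDN193189, 716 ± 41.5 CPM in SNI and 761 ± 40.2 CPM in sham libraries (SD, n = 3 each). Single libraries spanned 701 to 723 CPM in SNI+LDN193189, 670 to 752 CPM in SNI and 718 to 798 CPM in sham. The treated libraries lay close together and inside the SNI range, and sham replicate 2 lay inside both other ranges. The Dnah genes summed to 82.6, 82.2 and 81.3 CPM in SNI+LDN193189 libraries, to 77.3, 86.5 and 96.7 CPM in SNI libraries, and to 99.5, 79.6 and 93.5 CPM in sham libraries.

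Weighting each member alike shows how libraries of a group differed. As a mean over members of the log2 deviation from the gene's own mean, the libraries stood at -0.0028, -0.06 and -0.13 in SNI+LDN193189, at -0.21, 0.03 and 0.08 in SNI, and at 0.13, -0.04 and 0.20 in sham. SNI replicate 1 was thus below every other library, and it gave the lowest of the 9 values for 26 of the 71 members. Sham replicates 1 and 3 were the highest and gave the top value for 18 and 19 members. These 2 are also the libraries with the most muscle and the most nerve root RNA, and SNI replicate 1 has the least nerve root RNA. The part of muscle RNA in the members' values was not tested.

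The members did not all follow this pattern. Over the 9 libraries the Pearson correlation of a member's log2 CPM with the mean of the other members had a median of 0.52. It was 0.7 or more for 19 members and below 0 for 16. The libraries share their groups, scaling and tissue make-up, so these correlations are a description. The inner arm chain Dnah12 followed the rest most closely with r = 0.97. It had 6.72, 6.33 and 5.33 CPM in SNI+LDN193189, 4.47, 6.81 and 7.20 CPM in SNI, and 8.04, 5.81 and 8.18 CPM in sham libraries. Dnah6 with 0.88, the central pair genes Cfap46 with 0.84 and Cfap54 with 0.80, and the tether gene Cfap44 with 0.85 were alike in this.

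With roles assigned by hand after values had been seen, central pair genes had the highest median correlation, 0.63, of any role with several members. All 6 were at 0.52 or more. Radial spoke genes had a median of 0.56 and microtubule inner proteins 0.54. The 12 other Cfap genes had a median of -0.08 with 6 below 0, among them the abundant Cfap36 at -0.57, Cfap97 at -0.39 and Cfap410 at -0.34. The lowest value was -0.70, for Cfap68. Foxj1 itself had a correlation of 0.09 with the other members, and its highest library, SNI+LDN193189 replicate 1, was near the middle for the rest. Marker lists of cell types had median correlations with the members' mean of -0.67 for oligodendrocytes, -0.57 for neurons, -0.54 for astrocytes and -0.39 for microglia. Above 0 were nerve root with 0.61, cerebrospinal fluid-contacting neurons with 0.57, meningeal fibroblasts with 0.51 and ependymal markers outside the axoneme with 0.29. Muscle, sperm, sensory ganglion, choroid plexus and airway markers lay at 0.01 to 0.24.

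**Figure D4:**
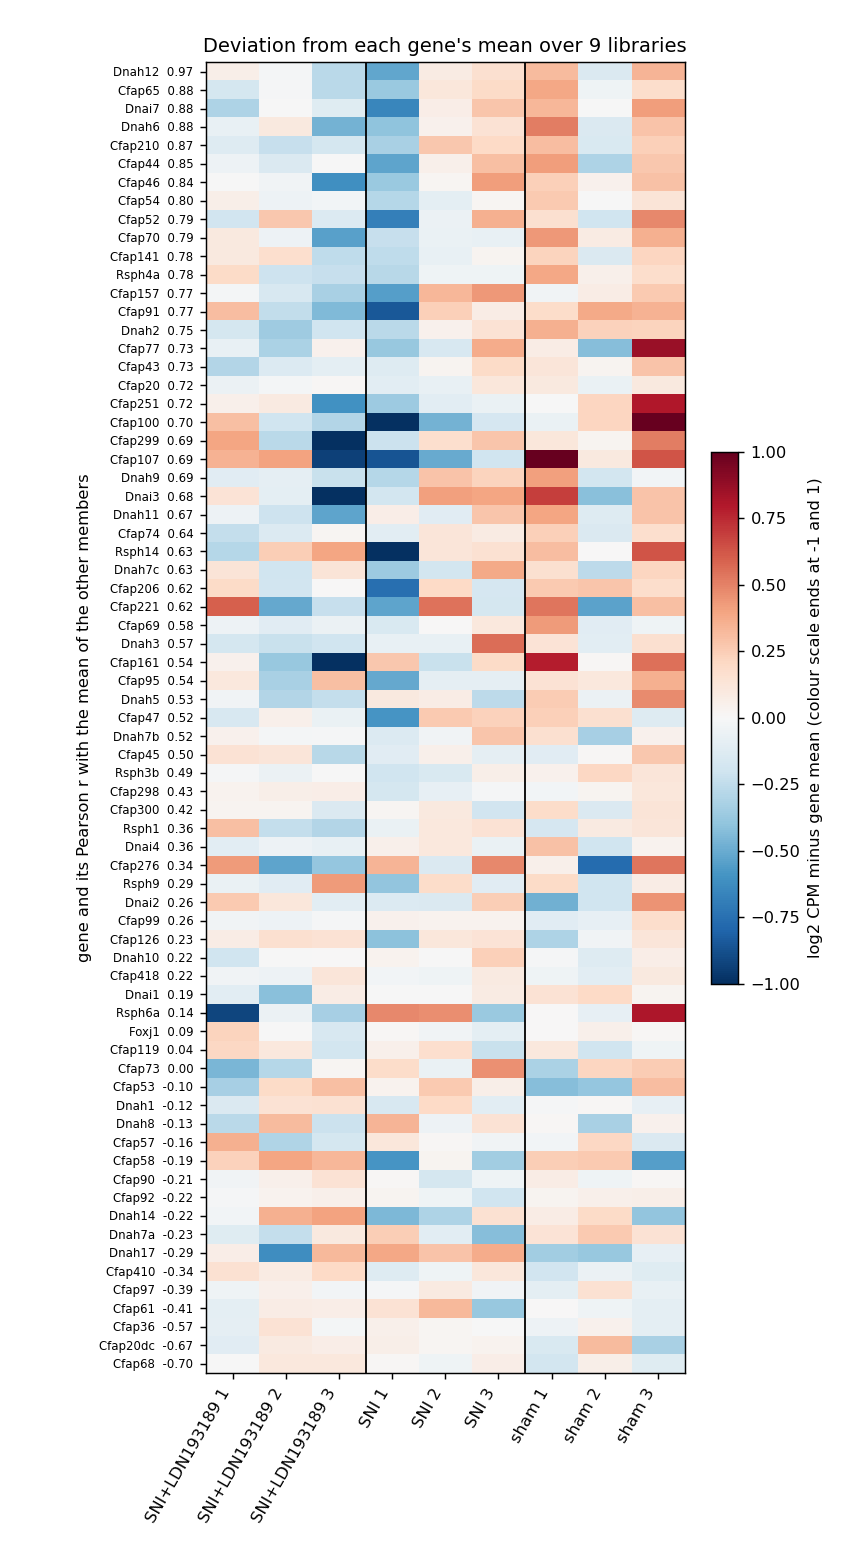
Deviation of log2 CPM from each gene's mean in the 9 libraries for the 71 members, ordered by the correlation with the mean of the other members. Most genes of the upper part are low in SNI replicate 1 and high in sham replicates 1 and 3, while Cfap36, Cfap20dc and Cfap68 at the bottom are not.

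Of 18174 tested genes that are no members, the median correlation with the members' mean was 0.02, and 24 genes reached 0.9. The 10 highest were Cenatac with 0.96, Sntb2, Ak7, Spg21, Bhlhe22, Odf3l2, Gm35682, Pkdcc, Gm39503 and Sun3 with 0.92. Ak7 is an adenylate kinase of motile cilia. It had 9.54, 8.90 and 7.79 CPM in SNI+LDN193189 libraries, 7.48, 9.20 and 11.5 CPM in SNI libraries, and 11.6, 10.0 and 12.3 CPM in sham libraries.

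Lists of cilia genes with other symbols were set beside the members, and 0 of their genes were called in any of the 3 comparisons. For SNI against sham the docking, light chain and nexin-dynein genes had a median log2 fold change of -0.16, with 14 of 19 below 0. The central pair and spoke genes outside the 4 prefixes had -0.21, with 14 of 17 below 0. Tektins and other axonemal genes had -0.25, with 24 of 28 below 0. Closer to 0 were the dynein arm assembly factors with -0.03 and 7 of 11 below, the transcription and centriole genes with -0.03 and 8 of 15 below, and the intraflagellar transport genes, which primary cilia also need, with -0.05 and 16 of 23 below.

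For SNI+LDN193189 against SNI the medians of these 6 lists lay between -0.08 and 0.06. For SNI+LDN193189 against sham they were -0.20 for docking and nexin-dynein genes, -0.19 for central pair and spoke genes, -0.19 for tektins and other axonemal genes, -0.11 for transcription and centriole genes, -0.03 for intraflagellar transport and 0.02 for assembly factors. The genes now given are those with the smallest p of each list in the joint test. Drc7, of the nexin-dynein complex, had 3.79, 2.69 and 2.58 CPM in SNI+LDN193189, 2.19, 3.18 and 3.54 CPM in SNI, and 4.77, 3.58 and 4.47 CPM in sham libraries. Enkur, a gene of motile axonemes, had 5.40, 7.41 and 5.16 CPM in SNI+LDN193189, 4.50, 6.19 and 7.11 CPM in SNI, and 8.85, 6.30 and 9.01 CPM in sham libraries. In both genes SNI replicate 1 was lowest of all. Dnal1, a light chain of the outer arm, had 72.2, 78.5 and 77 CPM in SNI+LDN193189, 73.8, 85.3 and 85.2 CPM in SNI, and 90.9, 86.5 and 78.8 CPM in sham libraries.

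Of the intraflagellar transport genes, Dync2li1, a light chain of the retrograde motor, had 16.9, 14.6 and 13.6 CPM in SNI+LDN193189, 16, 18.3 and 18.7 CPM in SNI, and 17.8, 19.1 and 20.7 CPM in sham libraries. Its log2 fold change for SNI+LDN193189 against sham was -0.35 ± 0.11 (SE, edgeR adjusted p = 0.425). Ift172, a subunit of the transport trains, had 47.1, 43.5 and 51.1 CPM in SNI+LDN193189, 51.4, 53.2 and 45.9 CPM in SNI, and 60.1, 52.96 and 54.5 CPM in sham libraries. Both genes lay below every sham library in SNI+LDN193189 libraries, as did 6.31% of all genes tested. Genes picked by the smallest joint p tend to separate groups, so this describes these genes and not their list. Of the assembly factors, Dnaaf11 had 4.34, 5.35 and 6.19 CPM in SNI+LDN193189, 3.22, 4.12 and 5.12 CPM in SNI, and 3.94, 4.13 and 3.77 CPM in sham libraries, and Zmynd10 had 0.107 to 0.484 CPM over all 9 libraries.

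Ccdc146, a centriole and axoneme gene, had 1.47, 1.4 and 1.38 CPM in SNI+LDN193189, 1.03, 2.13 and 1.8 CPM in SNI, and 2.33, 1.91 and 2.42 CPM in sham libraries. Tmem212, an ependymal gene, had 5.86, 3.73 and 3.78 CPM in SNI+LDN193189, 4.10, 6.05 and 6.31 CPM in SNI, and 9.06, 4.81 and 7.94 CPM in sham libraries. Rfx4, an RFX factor of the neural lineage, had 24.1, 22 and 20.6 CPM in SNI+LDN193189, 24.9, 23.4 and 25.1 CPM in SNI, and 26.5, 25.5 and 24.5 CPM in sham libraries. Gmnc, which starts centriole amplification in cells that make many cilia, had 0.862, 0.956 and 1.55 CPM in SNI+LDN193189, 2.19, 1.99 and 1.33 CPM in SNI, and 1.93, 1.94 and 1.56 CPM in sham libraries. Ccdc146, Rfx4 and, by a small margin, Gmnc lay below each sham library in SNI+LDN193189 libraries, while Tmem212 overlapped between all groups. Of all genes tested 6.31% lay below in that way, and these genes were picked by their small joint p.

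**Figure D5:**
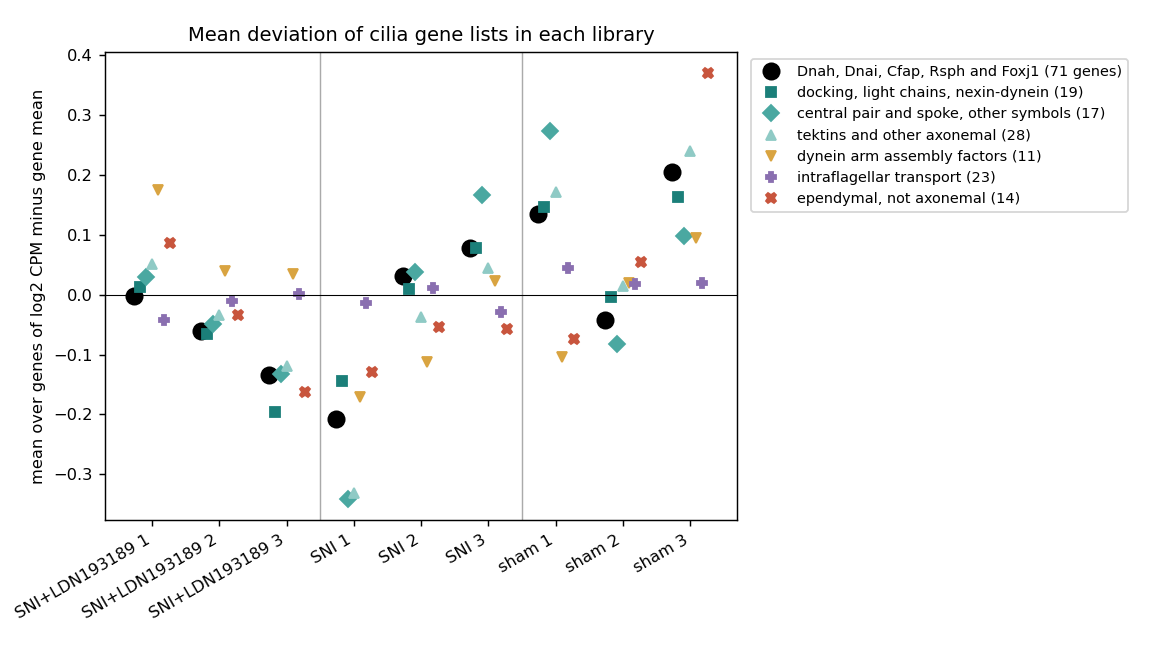
Mean log2 deviation from the gene mean in each library for the 71 members and for 6 other lists, with the number of genes tested in brackets. The 3 other axonemal lists move with the members, which lie at -0.21 in SNI replicate 1 and 0.20 in sham replicate 3, while intraflagellar transport genes stay near 0.

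The label of ependymal origin was set against cell markers. Of 16 ependymal markers outside the axoneme 14 were tested, S100a6 and Sox2 were listed at 0, and the list summed to 1241 to 1317 CPM in SNI+LDN193189, 1233 to 1245 CPM in SNI and 1142 to 1365 CPM in sham libraries. Several of these genes are shared with astrocytes or other cells. Clu gave 524 to 605 CPM and Mlc1 168 to 186 CPM of the sum in every library, so the sums follow few genes. For SNI against sham their median log2 fold change was -0.06 with 8 of 14 below 0, for SNI+LDN193189 against SNI it was 0.02 with 5 below, and for SNI+LDN193189 against sham -0.04 with 9 below. The 2 genes now given had the smallest joint p of this list, so they do not stand for it. For SNI against sham 6 of the 14 were higher. Rarres2 had 7.44, 5.62 and 4.44 CPM in SNI+LDN193189, 3.98, 5.46 and 5.32 CPM in SNI, and 5.90, 8.15 and 12.3 CPM in sham libraries. Nes had 33.3, 19.2 and 19.2 CPM in SNI+LDN193189, 20.2, 22.4 and 18.4 CPM in SNI, and 25.4, 32.3 and 72.6 CPM in sham libraries. Neither Rarres2 nor Nes was called for SNI against sham (edgeR adjusted p = 0.927 for each). Both were highest in sham replicate 3, the library with the most nerve root RNA, and the part of nerve root RNA in this was not tested.

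Markers of other tissues with motile cilia or flagella were also summed. Airway markers summed to 0.573 to 1.06 CPM in SNI+LDN193189, 0.471 to 0.592 CPM in SNI and 0.352 to 0.697 CPM in sham libraries, with Scgb3a2 and Bpifa1 at 0. Sperm markers summed to 5.55 to 6.96 CPM in SNI+LDN193189, 5.62 to 7.25 CPM in SNI and 6.00 to 6.81 CPM in sham libraries, with Akap4 and Pgk2 at 0, most of it from Gapdhs. Choroid plexus markers summed to 32.0 to 35.6 CPM in SNI+LDN193189, 31.6 to 37.7 CPM in SNI and 40.1 to 49.6 CPM in sham libraries, with Kcnj13 and Otx2 at 0, where Foxj1 alone had 27.7 to 36 CPM over all libraries. Of the choroid plexus sums Prlr gave 16.3 to 23.3 CPM in every library, and Sostdc1 gave 18.7 CPM in sham replicate 3. Ttr, also on that list, reached at most 0.120 CPM in any library. Since Sox2, Aqp4 and P2ry12 were also listed at 0, a gene at 0 does not show that its cell type is missing. Aqp1, of the choroid plexus list, had 0.517, 1.22 and 0.86 CPM in SNI+LDN193189, 1.58, 0.969 and 0.72 CPM in SNI, and 5.31, 3.46 and 2.69 CPM in sham libraries. Slc4a5, of the same list, went the other way. Its log2 fold change was 0.77 for SNI against sham and 0.53 for SNI+LDN193189 against sham (edgeR adjusted p = 0.927 and 0.590). For Aqp1 the edgeR adjusted p was 0.620 and 0.144 in these comparisons. These 2 genes had the smallest joint p of that list, and neither was called. Of the 9 genes of that list tested, 7 were lower and 2 higher for SNI against sham. For SNI+LDN193189 against sham 6 were lower and 3 higher. Markers of cerebrospinal fluid-contacting neurons, which lie among ependymal cells, summed to 36.95 to 38.9 CPM in SNI+LDN193189, 32.0 to 42.0 CPM in SNI and 34.98 to 42.6 CPM in sham libraries.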

How the data were processed

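RNA of mouse spinal cord was measured in 9 libraries, 3 per group, by poly(A) selection, strand-marked libraries and 150 bp pairs, per the labels' protocols. The authors deposited whole-number read counts per gene symbol and FPKM values. The submitters' processing notes name mm10, and for the aligner, the counter and its strand setting no source used here gives a name. In the deposited tables FPKM equalled count over library total and 1 fixed length for all 24535 genes with counts in at least 2 libraries (relative tolerance 1e-06). Columns were mapped to groups by their letters. Counts were filtered with filterByExpr, scaled by TMM and fitted in edgeR 4.0.16 (robust quasi-likelihood F test, 9 libraries, group means, 6 residual degrees of freedom, R 4.3.3), with Benjamini-Hochberg adjustment over 18245 genes and calls under 0.05. The fit was tested on simulated data. Log2 CPM used a prior count of 2. DESeq2 1.42.0, limma 3.58.1 (voom with sample weights, and log2(FPKM + 0.1)), other scalings and filters, a nerve root covariate, a replicate block and leaving out each library were alternatives. Python 3.11.15, pandas 2.3.3 and matplotlib 3.10.9 made tables and figures. Genes were placed with GENCODE M21 on GRCm38, which located 59 of 74 members by symbol.

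The members and gene lists were chosen with earlier results of these data known, and roles were assigned by hand after values had been seen, so lists are described without a test. Genes named were Foxj1, the 5 most abundant members of each prefix by FPKM, the 5 members with the smallest p per comparison, of each cilia and ependymal list the 2 genes with the smallest joint p, and the 10 genes most like the members; others were chosen after their values were seen.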

Additional observations from a re-analysis of the deposited data

How the results depend on the processing

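No member was called in any comparison, in the joint test of the 3 groups or under any of 20 settings, in 5563 member tests whose lowest adjusted p was 0.110, for Dnah2 in SNI+LDN193189 against sham with DESeq2. Over all genes, the calls for SNI against sham were 0 as reported, 24 with DESeq2, 14 with the level of nerve root markers as a covariate and 0 to 38 leaving out single libraries, the 38 without sham replicate 1. For SNI+LDN193189 against SNI they were 1, with 5 by DESeq2, 0 by limma on log2(FPKM + 0.1), 2 by limma-voom, 2 with no filter, 3 with only the 2 groups compared, 0 with the replicate block and 0 to 2 leaving out single libraries. For SNI+LDN193189 against sham they were 3, with 72 by DESeq2, 1 by limma on log2(FPKM + 0.1), 14 with the nerve root covariate, 30 with no filter, 1 with the stricter filter and 1 to 17 leaving out single libraries, the 17 without SNI replicate 3. The causes were not tested.

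The members' median log2 fold change stayed below 0 in each comparison under all 20 settings, with -0.17 to -0.03 for SNI against sham, -0.09 to -0.00066 for SNI+LDN193189 against SNI and -0.21 to -0.09 for SNI+LDN193189 against sham leaving out single libraries. Of 341 alternative fold changes of named members 11 turned sign. Foxj1 in SNI+LDN193189 against sham stood at -0.013 with library totals only, -0.021 on FPKM, -0.011 with limma-voom, -0.0029 with the replicate block, -0.0012 with the stricter filter and -0.106 to 0.0862 leaving out single libraries. Foxj1 in SNI+LDN193189 against SNI ran from -0.039 to 0.153 leaving out single libraries. Cfap251 and Cfap100 in SNI against sham stood at 0.049 and 0.047 with that covariate. Same-numbered libraries did not deviate together, with correlations of -0.11 to 0.14 over 9 pairs, so the numbers were not taken to pair samples, and the replicate block called 0 members. Low counts limit the 10 members with a mean under 50.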
